A study of Mus musculus with 2 samples.

Results

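The 9 genes described here encode receptors that costimulate T cells: Tnfrsf4 (OX40), Tnfrsf9 (4-1BB), Tnfrsf18 (GITR), Tnfrsf1b (TNFR2), Tnfrsf25 (DR3) and Cd27 of the tumor necrosis factor (TNF) receptor superfamily, Icos and Cd28 of the CD28 family, and Cd226 (DNAM-1) of the immunoglobulin superfamily. They were chosen as a gene family, with earlier results of these data known, and are 9 of the 31053 mouse genes in the count matrix. Transcripts were measured by 5' single-cell RNA sequencing of T cells sorted from transplanted melanomas of C57BL/6J mice, either B16 or B16-IL33, a B16 line that expresses interleukin 33 (IL-33). No agent was given to the animals according to the labels. Cells of both tumors were marked with oligonucleotide hashtags and pooled into 1 gene expression library, with a hashtag library and a T cell receptor (TCR) library from the same droplets.

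T cells were assigned to a lineage by their own transcripts. Of 14035 barcodes, 9078 had 200 to 2500 detected genes and under 5% mitochondrial unique molecular identifiers (UMIs), with a median of 2467 UMIs (254 to 14063). CD8 cells held more Cd8a and Cd8b1 than Cd4 and Foxp3 UMIs (1260 cells, median 3462 UMIs). Regulatory T (Treg) cells held Foxp3 and no Cd8a or Cd8b1 (2609 cells, median 2780), of which 504 held Il1rl1, the transcript of the IL-33 receptor, and 2105 did not. Conventional CD4 (Tconv) cells held Cd4 and none of Foxp3, Cd8a or Cd8b1 (1769 cells, median 2498). A small class of 81 cells held Zbtb16, the transcript of the transcription factor PLZF, and no Foxp3 or Cd8 (median 2939). A further 3380 cells (37.2%) met no rule, of which 2901 held a CD3 transcript. All cells came from 1 library, its hashtags were sparse, and the sources used here do not say whether tags mark separate animals. Cells were therefore not treated as replicates, no test between conditions was made, and each interval below covers counting error only.

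The class labels were set against marker genes. The Zbtb16 class was labelled natural killer T (NKT) cells, but only 16 of the 60 with a TCR record carried the TRAV11-TRAJ18 alpha chain that defines invariant NKT cells (26.7%, Clopper-Pearson interval 16.1 to 39.7), beside 17 of 1180 Tconv cells (1.44%, 0.841 to 2.30). These 81 cells are called Zbtb16 cells, and 21 of them were also Tconv cells. The Tconv class held markers of Treg cells at a summed level of 838 CPM (counts scaled to 1000000) over 5 markers, against 3279 CPM in Treg cells, with Foxp3 at 0 by rule. An Il2ra or Ikzf2 UMI was present in 697 Tconv cells (39.4%), in 88.0% of Treg cells and in 38.1% of CD8 cells. Since Foxp3 can go undetected in a cell that expresses it, and activated Tconv cells also express Il2ra, the ratios of the 9 genes to Tconv cells are also given without these 697 cells where they moved. Co-detection, related genes, hashtags and clones were counted over all Tconv cells. Myeloid cells without a CD3 transcript (183 cells, median 4285 UMIs) served as the background from free RNA, except for Tnfrsf1b. They held Tnfrsf9 at 67.3 CPM (55 UMIs in 29 cells), and whether they express it was not tested.

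T cells need a signal through the TCR and a costimulatory signal to divide and survive. CD28 is present on resting T cells and binds CD80 and CD86, the ligands that CTLA-4 competes for, and ICOS appears after activation. OX40, 4-1BB and GITR are induced by TCR signaling and act through TRAF adaptors and NF-kappaB, CD27 and TNFR2 belong to the same family, and DR3 binds the cytokine TL1A. CD226 promotes killing by CD8 T and NK cells and shares its ligands with the inhibitory receptors TIGIT and CD96.

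Of the 6 TNF receptor genes, 5 lie on chromosome 4 of GRCm38. Tnfrsf4 (ENSMUSG00000029075, chr4:156013843-156016612) and Tnfrsf18 (ENSMUSG00000041954, chr4:156026164-156028895) are neighbors on the same strand, 9.55 kb apart with 0 protein-coding genes between them. Tnfrsf9 (chr4:150914562-150946102), Tnfrsf25 (chr4:152115934-152120119) and Tnfrsf1b (chr4:145213463-145246870, minus strand) lie farther off, and Cd27 is on chromosome 6 (chr6:125232622-125237010, minus strand). RefSeq start sites were found for these 6 genes, and the 250 bases before each were searched on both strands for a kappaB motif (the NF-kappaB site), for the AP-1 motif TGANTCA and for the NFAT core GGAAA. Among 32851 RefSeq promoters of this length, 7.25% held the kappaB motif, 6.75% the AP-1 motif and 55.6% the NFAT core. Upstream of the second of 2 listed starts, Tnfrsf9 held 2 overlapping kappaB matches 43 and 42 bases before the start and 1 AP-1 match 15 bases before it. Tnfrsf25 held 1 kappaB match 28 bases before its second start, and neither motif was found in this window for Tnfrsf4, Tnfrsf18, Tnfrsf1b or Cd27. The NFAT core, common among all promoters, was found for each of the 6 genes except Tnfrsf1b. A match is a stretch of letters and not evidence of binding. By the gene coordinates given above, the windows shown for Tnfrsf9 and Tnfrsf25 lie inside the gene, and that of Tnfrsf18 overlaps its beginning. Shown are the windows of Tnfrsf4, Tnfrsf18 and Tnfrsf9, 3 of the receptors that were highest in both Treg groups, and of Tnfrsf25, which was not. Each is 5' to 3' on the plus strand (GRCm38.p6) and ends at the base before the start, with kappaB and AP-1 matches in capitals.
Tnfrsf9, chr4:150927749-150927998: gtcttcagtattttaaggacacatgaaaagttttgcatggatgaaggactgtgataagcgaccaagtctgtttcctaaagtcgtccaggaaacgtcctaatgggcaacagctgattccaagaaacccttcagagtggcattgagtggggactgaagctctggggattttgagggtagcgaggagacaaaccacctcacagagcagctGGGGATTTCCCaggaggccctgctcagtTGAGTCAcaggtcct
Tnfrsf25, chr4:152116093-152116342: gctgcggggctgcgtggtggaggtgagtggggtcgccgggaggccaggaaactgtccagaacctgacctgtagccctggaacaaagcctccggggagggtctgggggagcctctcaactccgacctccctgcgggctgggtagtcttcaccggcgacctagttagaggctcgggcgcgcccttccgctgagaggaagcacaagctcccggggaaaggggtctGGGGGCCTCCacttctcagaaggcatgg
Tnfrsf4, chr4:156013445-156013694: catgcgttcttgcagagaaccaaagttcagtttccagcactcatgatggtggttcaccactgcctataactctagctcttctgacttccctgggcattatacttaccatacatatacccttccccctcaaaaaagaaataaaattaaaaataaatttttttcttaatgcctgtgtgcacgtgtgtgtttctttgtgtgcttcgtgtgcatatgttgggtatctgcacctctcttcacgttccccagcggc
Tnfrsf18, chr4:156026072-156026321: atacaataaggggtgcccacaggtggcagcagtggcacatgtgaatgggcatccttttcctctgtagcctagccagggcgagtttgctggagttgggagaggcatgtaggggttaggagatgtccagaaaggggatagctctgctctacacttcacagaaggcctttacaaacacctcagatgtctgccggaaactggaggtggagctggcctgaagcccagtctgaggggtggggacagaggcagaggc

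The TNF receptors induced by activation were highest in Treg cells. Tnfrsf4 reached 1671 CPM in Il1rl1+ Treg cells (95% Poisson interval 1609 to 1735) and 1470 CPM in Il1rl1- Treg cells (1441 to 1500), followed by 524 CPM in Tconv cells (505 to 545), 156 CPM in CD8 cells (145 to 167) and 68.3 CPM in Zbtb16 cells (41.1 to 107). No 2 neighbors in this order overlapped, and the myeloid background was 29.4 CPM. Tnfrsf9 had the same order, at 1542, 1133, 372, 252 and 82.6 CPM, again with every neighboring interval apart and a myeloid level of 67.3 CPM. Tnfrsf18 was at 1131 and 1124 CPM in the Il1rl1+ and Il1rl1- Treg cells, whose intervals overlapped, at 520 CPM in Tconv, 251 CPM in CD8 and 208 CPM in Zbtb16 cells (158 to 269), of which the last pair overlapped. For Tnfrsf9 the order of Tconv and CD8 cells depended on which Tconv cells were counted, as given below.

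Tnfrsf1b, which encodes a receptor for TNF, was at 330 CPM in Il1rl1+ Treg cells (303 to 359), 279 CPM in Il1rl1- Treg cells, 113 CPM in Tconv, 86.2 CPM in Zbtb16 and 73.4 CPM in CD8 cells. Myeloid cells held 221 CPM of it (190 to 256), above the levels of Tconv, Zbtb16 and CD8 cells. The myeloid level therefore does not serve as a background from free RNA for this gene. Cd27, a receptor for CD70, was highest in the Il1rl1- Treg cells at 360 CPM (346 to 375), ahead of the Il1rl1+ Treg cells at 231 CPM (209 to 256). Zbtb16, CD8 and Tconv cells had 162, 158 and 149 CPM of Cd27, with overlapping intervals. Tnfrsf25 was sparse in every class, at 75.1 CPM in Il1rl1+ Treg cells (62.4 to 89.6), 43.4 CPM in Tconv, 39.5 CPM in Zbtb16 cells (19.7 to 70.7), 26.9 CPM in Il1rl1- Treg cells (23.1 to 31.1) and 13.5 CPM in CD8 cells (10.5 to 17.1). For Tnfrsf25 the 2 Treg groups thus stood on either side of the Tconv cells.

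The CD28 family genes Cd28 (chr1:60716800-60773359) and Icos (chr1:60977927-61000320) lie on chromosome 1 with Ctla4 as the 1 protein-coding gene between them, and they differed in pattern. Icos was at 1029 CPM in Il1rl1+ Treg cells (980 to 1079), 793 CPM in Il1rl1- Treg cells (772 to 815), 409 CPM in Tconv, 370 CPM in Zbtb16 cells (302 to 449) and 193 CPM in CD8 cells, with overlap only between Tconv and Zbtb16 cells. Cd28 was level between Treg and Tconv cells, at 318, 311 and 311 CPM in Il1rl1- Treg, Il1rl1+ Treg and Tconv cells, and lower in CD8 cells at 215 CPM (202 to 228). Zbtb16 cells lay between at 273 CPM, with an interval wide enough to overlap both of its neighbors.

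Cd226 (ENSMUSG00000034028) ran the other way. CD8 cells held 55.4 CPM (49.1 to 62.3), Zbtb16 cells 46.7 CPM (24.9 to 79.9), Tconv cells 34.7 CPM (29.7 to 40.2), Il1rl1- Treg cells 11.8 CPM (9.31 to 14.7) and Il1rl1+ Treg cells 7.33 CPM (3.79 to 12.8). Tconv and Il1rl1- Treg cells were the only neighbors that did not overlap. Myeloid cells had 1 UMI of Cd226 (1.22 CPM).

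**Figure D1:**
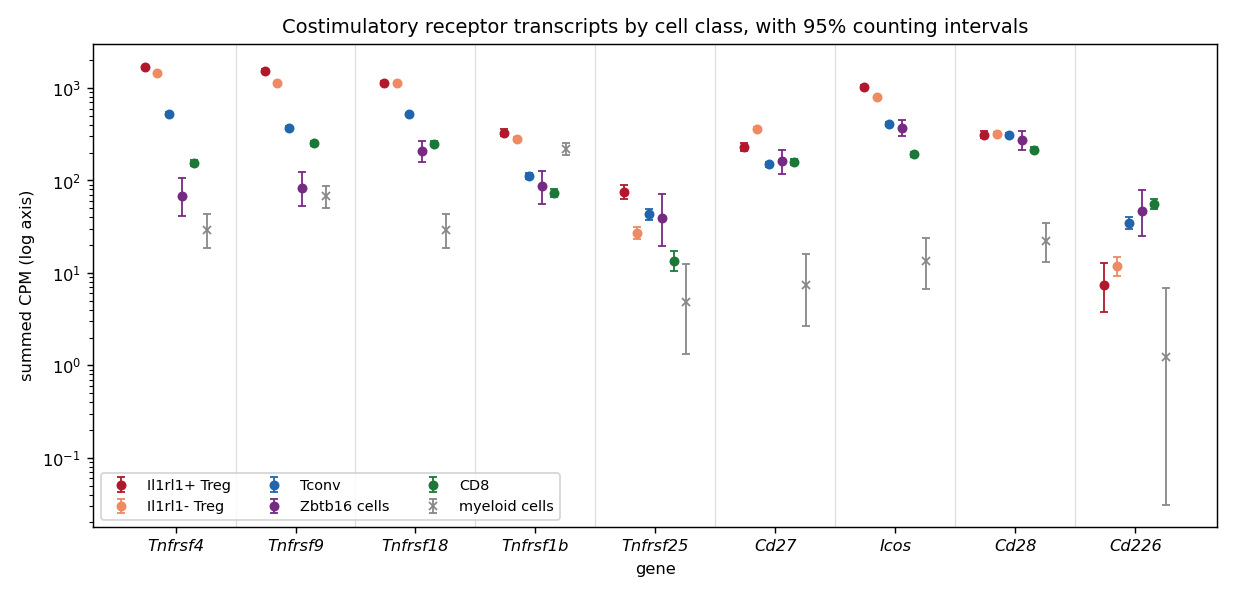
Summed CPM of each gene (log axis) in 6 classes of cells from 1 library, with 95% Poisson intervals as bars and myeloid cells as crosses. Tnfrsf4, Tnfrsf9, Tnfrsf18 and Icos stand highest in both Treg groups, Cd28 is level between Treg and Tconv cells and lower in CD8 cells, and Cd226 descends from 55.4 CPM in CD8 cells to 7.33 CPM in Il1rl1+ Treg cells.

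The share of cells with a UMI followed the same lines when each cell was thinned to 1500 UMIs, which left out 454 Treg, 322 Tconv, 109 CD8 and 2 Zbtb16 cells. Tnfrsf4 was detected in 73.4% of Treg cells (Clopper-Pearson interval 71.5 to 75.3), 32.1% of Tconv cells (29.7 to 34.5), 12.4% of CD8 cells (10.6 to 14.5) and 4.29% of myeloid cells (1.74 to 8.65). Without thinning these shares were 83.7%, 43.5%, 24.0% and 10.9%. Tnfrsf9 was detected in 64.6% of thinned Treg, 21.1% of Tconv and 19.7% of CD8 cells, against 9.20% of myeloid cells (unthinned 76.3%, 31.7%, 31.4% and 15.8%). The Zbtb16 shares of Tnfrsf4 (10.1%, 4.47 to 19.0) and Tnfrsf9 (11.4%, 5.34 to 20.5) overlapped the myeloid ones. Tnfrsf4 was at 68.3 CPM in Zbtb16 cells (41.1 to 107) and 29.4 CPM in myeloid cells (18.8 to 43.7). Tnfrsf9 was at 82.6 CPM (52.4 to 124) and 67.3 CPM (50.7 to 87.6). The ratio of Zbtb16 to myeloid cells was not tested. Cd226 was detected in 7.91% of thinned CD8 cells and 1.48% of Treg cells (unthinned 17.1% and 3.18%), with 0.613% in myeloid cells (0.0155 to 3.37), whose interval contains the Treg share.

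Against Tconv cells, 6 of the 9 genes were at least 2-fold higher in Treg cells and 1 at least 2-fold lower, where 4.40% of 9280 genes with 50 or more UMIs were higher and 2.08% were lower by this rule. Tnfrsf9 had the largest ratio of CPM at 3.26 (3.1 to 3.43), followed by Tnfrsf4 at 2.88 (2.76 to 3.0), Tnfrsf1b at 2.56 (2.34 to 2.81), Cd27 at 2.24 (2.07 to 2.44), Tnfrsf18 at 2.16 (2.07 to 2.26) and Icos at 2.06 (1.96 to 2.16). Icos fell just under 2-fold, to between 1.90 and 1.94, in 3 of the alternative settings, and Cd27 to 1.98 in 1 of them. Cd28 did not separate the lineages (1.02, 0.956 to 1.08), and the interval of Tnfrsf25 reached 1 (0.839, 0.702 to 1.00). Cd226 was 3.18-fold higher in Tconv than in Treg cells (2.45 to 4.15). The median ratio of the 9 was 2.16, beside 1.07 over the genes compared.

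The 697 Tconv cells with an Il2ra or Ikzf2 UMI held 7 of the 9 transcripts at higher levels than the rest of their class. Tnfrsf9 was at 743 CPM in them and 123 CPM in the other 1072 Tconv cells, and Tnfrsf4 at 976 and 222 CPM. Tnfrsf18 was at 796 and 334 CPM, Tnfrsf1b at 200 and 53.9 CPM, Icos at 596 and 283 CPM and Cd27 at 242 and 86.5 CPM. Cd28 was slightly higher at 332 and 297 CPM (1.12-fold, 1.01 to 1.24), the interval of Tnfrsf25 contained 1 (48.1 and 40.3 CPM), and Cd226 was lower in the 697 cells (27.3 against 39.6 CPM). Set against the 1072 cells alone, the Treg ratio rose to 9.83 for Tnfrsf9, 6.81 for Tnfrsf4, 5.36 for Tnfrsf1b, 3.86 for Cd27, 3.36 for Tnfrsf18 and 2.97 for Icos, and 7 genes again passed the 2-fold rule. Treg cells were not filtered, and 88.0% of them held an Il2ra or Ikzf2 UMI, so these higher ratios are no like-for-like comparison. How many of the 697 cells were Treg cells with undetected Foxp3 was not tested.

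Against CD8 cells, 7 of the 9 were at least 2-fold higher in Treg cells and 1 lower, where 9.53% and 2.79% of 9288 genes were. Tnfrsf4 had the largest ratio of the 9, 9.67 (9.0 to 10.4), the 41st largest of the genes compared. Tnfrsf9 (4.81), Tnfrsf18 (4.49), Icos (4.35) and Tnfrsf1b (3.93) followed, then Tnfrsf25 (2.71, 2.07 to 3.58) and Cd27 (2.12). Over the alternative settings the ratio of Tnfrsf4 ranged from 7.17 to 12.4 and that of Tnfrsf9 from 3.29 to 5.94. Both were lowest without an upper limit on genes. Cd28 was 1.48-fold higher in Treg cells (1.37 to 1.59), and Cd226 was 5.09-fold higher in CD8 cells (4.0 to 6.52). These ratios share the Treg cells with the comparison to Tconv cells, so the pair of comparisons is not independent.

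CD8 cells were lower than Tconv cells by at least 2-fold in 4 of the 9 genes and higher in 0, where 3.27% and 2.05% of 8652 genes were. The 4 were Tnfrsf4 (524 CPM in Tconv and 156 CPM in CD8, 3.36-fold), Tnfrsf25 (3.23-fold, 2.45 to 4.30), Icos (2.12-fold) and Tnfrsf18 (2.07-fold). Cd27 was level (ratio of CD8 to Tconv 1.06, 0.958 to 1.17) and Cd226 was 1.60-fold higher in CD8 cells (1.32 to 1.94). For Tnfrsf9 the direction turned with the Tconv class, from a CD8 to Tconv ratio of 0.678 (0.631 to 0.728) over all Tconv cells to 2.04 over the 1072 without Il2ra or Ikzf2. This filter was applied to Tconv cells alone, and the 38.1% of CD8 cells with an Il2ra or Ikzf2 UMI were kept. The turn is thus no like-for-like comparison of the lineages, and a filter on both classes was not tested. Tnfrsf1b turned likewise from 0.651 to 1.36, and Cd27 moved from 1.06 to 1.83. Without those 697 cells, Tnfrsf4, Tnfrsf18 and Icos were at ratios of 0.704, 0.750 and 0.683, and of the 4 genes Tnfrsf25 alone stayed past 2-fold (0.334).

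Zbtb16 cells were at least 2-fold lower than Tconv cells in 3 of the 9 genes and higher in 0, where 12.4% and 3.31% of 7247 genes were. Tnfrsf4 was 7.68-fold lower (4.91 to 12.8), Tnfrsf9 4.5-fold lower (2.99 to 7.12) and Tnfrsf18 2.49-fold lower (1.92 to 3.29). The remaining 6 had intervals that contained a ratio of 1, among them Icos (0.906, 0.736 to 1.10), Cd28 (0.878, 0.688 to 1.11) and Cd27 (1.09, 0.785 to 1.47). Against Tconv cells without Il2ra or Ikzf2 the ratio of Tnfrsf9 rose from 0.222 to 0.669 and that of Tnfrsf4 from 0.130 to 0.308, so that Tnfrsf4 alone stayed past 2-fold. The Zbtb16 cells were not filtered for these genes. Tnfrsf18 moved from 0.401 to 0.623, Tnfrsf1b from 0.765 to 1.60, Icos from 0.906 to 1.31 and Cd27 from 1.09 to 1.87. The markers Trdc and Tcrg-C1 of gamma delta T cells, which the study's sort on TCR-beta should remove, summed to 46.7 CPM in Zbtb16 cells on 13 UMIs and to 6.97 CPM in Tconv cells, and their part in these values was not tested.

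**Figure D2:**
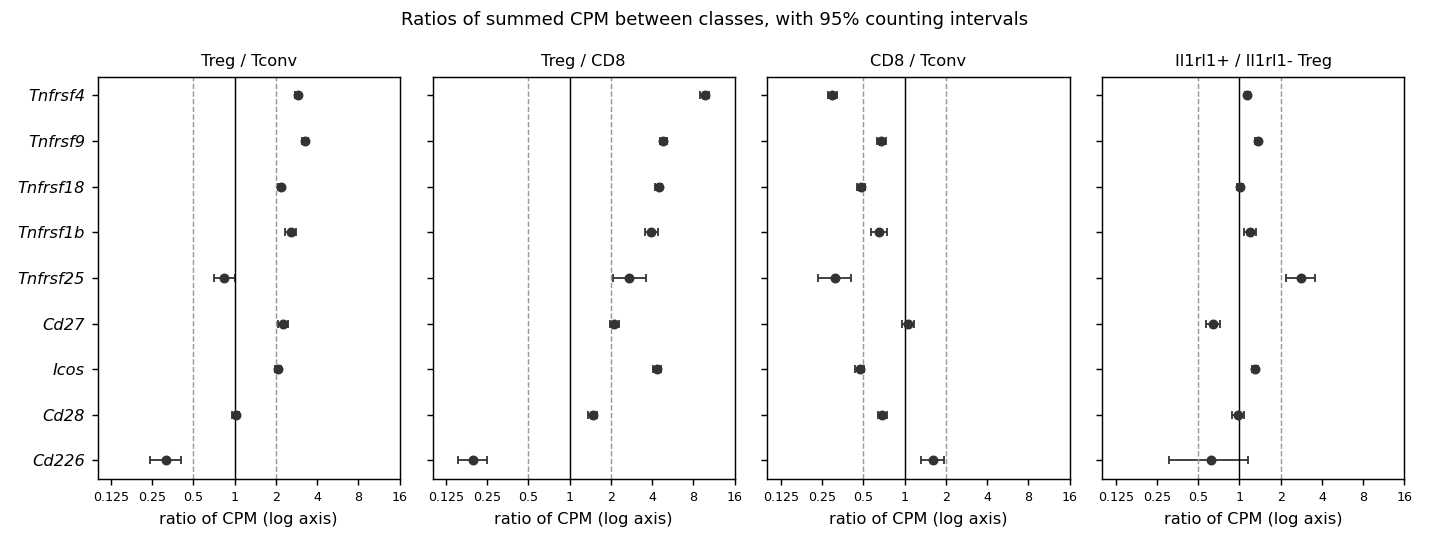
Ratio of summed CPM (log axis) for each gene in 4 pairs of classes, with 95% exact conditional binomial intervals, a solid line at 1 and dashed lines at 2-fold. Tnfrsf4 lies farthest to the right for Treg over CD8 (9.67), Cd226 lies left of 0.5 in both Treg comparisons, and Tnfrsf25 alone passes 2 between the Treg groups (2.79).

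Within Treg cells, Tnfrsf25 was the 1 gene of the 9 at least 2-fold higher with Il1rl1 than without, and 0 were lower, where 0.788% of 8380 genes were higher and 2.43% lower. Its ratio of 2.79 (2.20 to 3.54) was the 20th largest of the genes compared. Tnfrsf9 (1.36, 1.30 to 1.42), Icos (1.30, 1.23 to 1.37), Tnfrsf1b (1.19, 1.08 to 1.31) and Tnfrsf4 (1.14, 1.09 to 1.19) were higher by smaller steps. Cd27 was 1.56-fold higher in the cells without Il1rl1 (1.39 to 1.74). Tnfrsf18 (1.01, 0.956 to 1.06) and Cd28 (0.980, 0.888 to 1.08) were level, and for Cd226, with 12 UMIs in the Il1rl1+ cells, no difference was detectable at this depth. The Il1rl1- Treg cells also held more myeloid marker RNA (10 markers, 420 against 205 CPM) at a like depth (medians of 2772 and 2850 UMIs), and its part in these ratios was not tested. Both groups mix cells of both tumors. Among the few tagged cells, Tnfrsf4 was lower in Il1rl1+ than Il1rl1- Treg cells of both. It was at 1594 and 1727 CPM under B16-IL33 tags (13 and 42 cells) and 899 and 1317 CPM under B16 tags (12 and 233 cells). Tnfrsf9 was higher in the Il1rl1+ cells of both (2377 and 1225, 1153 and 1025 CPM), and Icos turned (1175 and 929, 508 and 562 CPM). The part of tumor origin in these ratios was not tested.

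Single Treg cells carried many of these transcripts together. After thinning to 1500 UMIs, 5 or more of the 9 were detected in 36.8% of Treg cells (34.7 to 38.8), 8.36% of Tconv cells (6.99 to 9.91), 2.53% of Zbtb16 cells (0.308 to 8.85) and 2.52% of CD8 cells (1.69 to 3.6). No receptor of the 9 was detected in 2.32% of Treg, 16% of Tconv, 15.2% of Zbtb16 and 24.7% of CD8 cells. Tnfrsf4, Tnfrsf9 and Tnfrsf18 were all present in 43.9% of Treg cells (41.8 to 46.0), 10.9% of Tconv cells (9.36 to 12.6) and 3.04% of CD8 cells (2.13 to 4.2). Among Treg cells, Tnfrsf9 was found in 72.6% of those with Tnfrsf4 and 42.4% of those without it, and Tnfrsf18 in 78.8% and 55.3%. The pattern recurred in Tconv cells, where Tnfrsf9 was found in 42.5% of cells with Tnfrsf4 and 11% of those without. Cd28 differed little by Tnfrsf4 in Treg cells (36.5% and 33%, with overlapping intervals). Cd27 was found in 21.9% of Treg cells with Tnfrsf25 (14.7 to 30.6) and in 38.2% of those without.

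**Figure D3:**
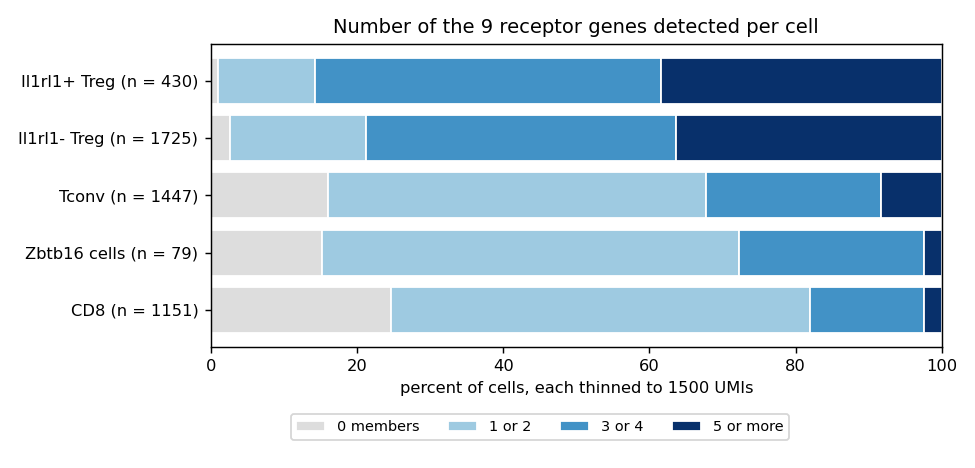
Percent of cells, each thinned to 1500 UMIs, in which 0, 1 or 2, 3 or 4, or 5 or more of the 9 genes had a UMI, as stacked bars by class with the number of cells. The bars for 5 or more reach 38.4% and 36.3% in the Treg groups and 8.36% in Tconv cells.

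The tumor of origin could be assigned for few cells, since the 4 hashtags (B16_1, B16_2, B16IL33_1 and B16IL33_2) gave 554, 929, 102 and 145 UMIs over the library. No minimum count was set, so an assignment can rest on a single hashtag UMI and can be wrong. Tags of a single tumor marked 939 cells, among them 55 Treg cells from B16-IL33 and 245 from B16 tumors, and whether the 2 tags of a tumor stand for separate animals is not given in the sources used here. Il1rl1 was present in 23.6% of the B16-IL33 Treg cells (13.2 to 37.0) and 4.90% of the B16 ones (2.56 to 8.40). Over all Treg cells it was present in 504 of 2609, so the tagged cells may not represent the pool. Over CD8, Treg and Tconv cells the interval left out 1 in 7 of 20 pairs of the 9 genes with enough UMIs, where it did in 12.6% of 5434 pairs over all genes. The rule calls abundant genes more readily, since their intervals are narrower.

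In Treg cells, Icos was at 592 and 537 CPM under the B16 tags and at 1095 and 932 CPM under the B16-IL33 tags. The pairs of tags did not overlap, and the pooled ratio was 1.75 (1.47 to 2.08), or 1.65 (1.36 to 2.0) in Treg cells without Il1rl1. Tnfrsf4 was at 1265 and 1323 CPM under B16 and 1912 and 1620 CPM under B16-IL33 tags (ratio 1.31, 1.16 to 1.49). Tnfrsf9 was at 914 and 1108 against 1852 and 1299 CPM (1.41, 1.22 to 1.61). For both genes the 2 values under B16-IL33 tags lay above the 2 under B16 tags, but the intervals of the tags numbered 2 overlapped. By tag number the ratio of Tnfrsf9 was 2.03 (1.58 to 2.57) for the tags numbered 1 and 1.17 (0.985 to 1.39) for those numbered 2, and that of Tnfrsf4 was 1.51 (1.19 to 1.89) and 1.22 (1.05 to 1.43). Tnfrsf18 was at 897 and 1183 against 1912 and 924 CPM, and its direction turned with the tag number. Its ratio was 2.13 (1.67 to 2.70) for the tags numbered 1 and 0.781 (0.639 to 0.948) for those numbered 2. Cd27 went from 1.59 (0.967 to 2.51) to 0.592 (0.378 to 0.893). For both genes the intervals of the B16-IL33 tags lay apart, so the spread between tags exceeded counting error. Tnfrsf25 overlapped between tumors for the tags numbered 1 but not for those numbered 2 (68.8 CPM, 31.4 to 131, against 16.3 CPM, 7.80 to 29.9). Its ratio was 0.744 (0.0168 to 5.55) and 4.22 (1.52 to 11.6) by tag number. The pooled ratio of 2.89 (1.19 to 6.59) rested on 10 and 18 UMIs and on 1 tag. Cd226 had 0 UMIs in the 55 B16-IL33 Treg cells, against 18.1 CPM under the B16 tags. A count of 0 allows up to 16.6 CPM by the rule of 3 UMIs and up to 20.4 CPM by the Poisson interval. No fold is given for Cd226 and no difference was detectable (interval of the ratio 0 to 1.26). The B16-IL33 Treg cells were shallower (median 2467 against 3401 UMIs), and with 18 cells under 1 tag the spread between cells adds to the counting error shown. Tagged CD8 (19 and 103) and Tconv cells (17 and 164) were fewer. Tnfrsf4 was lower under the B16-IL33 tags in both, with ratios of 0.403 (0.157 to 0.867) and 0.590 (0.345 to 0.947), but under either tag number alone the interval contained 1 in both classes. In Tconv cells Icos was higher, at a ratio of 2.04 (1.35 to 3.0), or 2.24 and 2.03 by tag number, and so was Tnfrsf1b at 2.88 (1.47 to 5.29), whose interval contained 1 under the tags numbered 1 (2.18, 0.527 to 6.85).

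**Figure D4:**
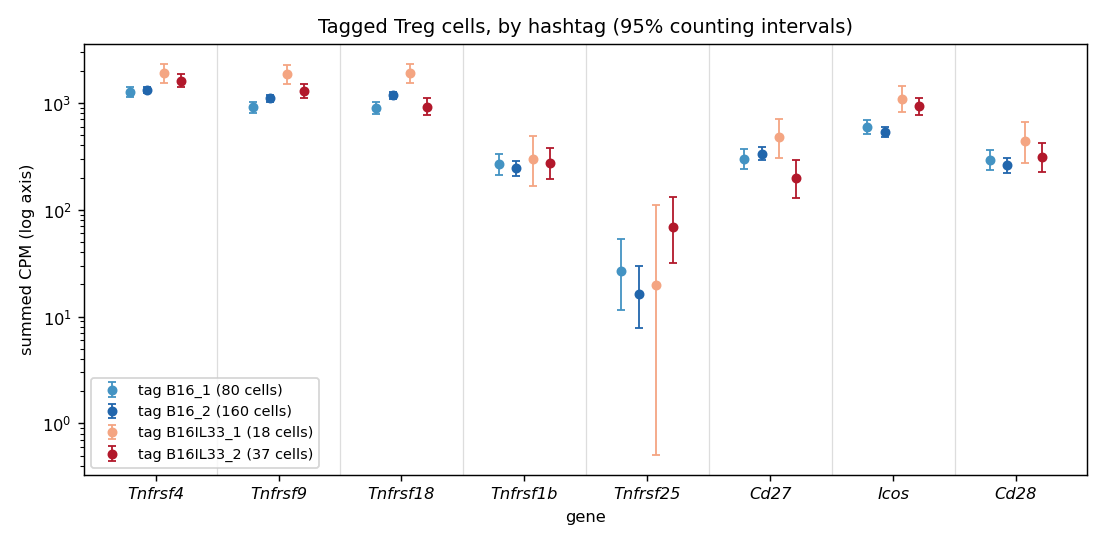
Summed CPM (log axis) of 8 of the genes in Treg cells under each of the 4 hashtags, with 95% Poisson intervals; Cd226 is left out because it had 0 UMIs under both B16-IL33 tags. Icos and Tnfrsf4 stand higher under both B16-IL33 tags than under both B16 tags, with Icos at 1095 and 932 against 592 and 537 CPM.

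Clonal expansion, taken as a clonotype found in 2 or more cells of a class, was set beside the receptor levels. Expanded cells numbered 200 in CD8, 98 in Treg and 63 in Tconv cells, beside 721, 1607 and 1117 cells with an unshared clonotype. Within the Il1rl1+ Treg group 0 of 288 cells shared a clonotype, while by the beta chain alone 6 cells did, in 3 clones. Of 46 expanded Treg clonotypes, 39 had 2 or more cells among the Il1rl1- Treg cells, and the rest spanned both Treg groups. The interval left out 1 in 14 of 27 pairs, where it did in 11.6% of 20253 pairs over all genes. In CD8 cells, the expanded cells were higher in Cd226 (86.6 and 47.3 CPM, 1.83-fold, 1.38 to 2.41) and Tnfrsf9 (311 and 229 CPM, 1.36-fold) and lower in Tnfrsf4 (103 and 167 CPM, ratio 0.617) and Tnfrsf18 (0.826). Expanded Treg cells were higher in Cd27 (503 and 337 CPM, 1.5-fold, 1.27 to 1.75), Tnfrsf4 (1.22-fold) and Tnfrsf18 (1.17-fold), and they held 2 UMIs of Tnfrsf25 (5.89 against 37.0 CPM). Expanded Tconv cells were lower in Tnfrsf9 (131 and 357 CPM, ratio 0.366), Tnfrsf4 (212 and 540 CPM, 0.392), Cd27 (0.425), Tnfrsf1b (0.453), Tnfrsf18 (0.684) and Icos (0.684). With clones defined by the beta chain alone, the interval contained 1 for Tnfrsf4 (0.854, 0.714 to 1.02) and Tnfrsf18 (0.965) in CD8 cells and for Tnfrsf1b (0.795) and Icos (0.978) in Tconv cells. It then left out 1 for Tnfrsf25 (0.397) and Cd27 (0.785) in CD8 cells and for Tnfrsf1b (1.28) in Treg cells, and Tconv Tnfrsf4 moved to 0.727.

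Related genes of these pathways were counted by the same 2-fold rule. Over all genes compared, 4.40% were higher in Treg than Tconv cells and 2.08% lower, and 9.53% and 2.79% against CD8 cells. Between the Treg groups, 0.788% were higher with Il1rl1 and 2.43% lower. In lists this short, 1 gene of 9 or 10 is too small a count to set apart from these shares. Of 20 other TNF receptors, 10 had enough UMIs for the comparison of Treg with Tconv cells, and 1 was higher, Tnfrsf8 (CD30), at 22.3 and 3.59 CPM (6.21-fold, 3.82 to 10.7). Tnfrsf8 was also 2.98-fold higher in Il1rl1+ than Il1rl1- Treg cells (2.19 to 4.02), where Tnfrsf12a was the other of 8 that passed (2.31-fold on 20 and 35 UMIs). Against CD8 cells, Tnfrsf8, Tnfrsf13b (4.36-fold) and Tnfrsf10b (3.34-fold) of 9 were higher in Treg cells. Among 9 ligands compared between Treg and Tconv cells, Cd80 was higher in Treg cells (13.8 and 4.78 CPM, 2.89-fold) and Tnf lower (19.1 and 40.0 CPM). Of the 5 inhibitory receptors, Ctla4 (2.82-fold) and Tigit (2.38-fold), the competitors of CD28 and CD226, were higher in Treg cells, and Cd96 was 2.44-fold lower, as Cd226 was.

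The signaling genes downstream moved less. Of 25 TRAF and NF-kappaB genes, 1 was at least 2-fold higher in Treg than Tconv cells, the survival gene Bcl2l1 (84.7 and 41.8 CPM, 2.03-fold), a share near the 4.40% of all genes compared, with a list median of 1.17 beside 1.07. Against CD8 cells 6 of the 25 were higher, beside 9.53% of all genes, led by Bcl2l1 (2.73-fold), Birc2 (2.54-fold) and Traf3 (2.42-fold). Of 19 CD28 and ICOS signaling genes with enough UMIs, Maf, a transcription factor induced by ICOS, was the 1 that was higher in Treg than Tconv cells (500 and 249 CPM, 2.01-fold), and Maf was 7.92-fold higher than in CD8 cells. In the 2 signaling lists, 0 genes passed the rule between the Treg groups. In Zbtb16 cells 3 of 5 inhibitory receptors were at least 2-fold lower than in Tconv cells, beside 12.4% of all genes compared. These were Tigit (4.73-fold), Ctla4 (4.18-fold) and Pdcd1 (2.26-fold). Also lower were 4 of 25 TRAF and NF-kappaB genes, 1 of 19 CD28 and ICOS signaling genes, 1 of 5 ligands and 1 of 4 other TNF receptors.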

How the data were processed

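Sorted T cells of both tumors, B16 and B16-IL33, were pooled and sequenced by the authors as a 10x Genomics 5' gene expression library with hashtag and TCR libraries. The authors deposited filtered UMI counts per gene and barcode, hashtag UMI counts per barcode, and TCR contigs with their UMI counts. Alignment was to a combined human and mouse reference (mouse build mm10) with Cell Ranger, version 3.1.0 per the matrix header and 6.1.1 per the submitters' processing notes. The deposited counts are not normalized. Mouse genes held 43420305 UMIs and human genes 8562, and the latter were left out.

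Cells were kept at 200 to 2500 genes and under 5% mitochondrial UMIs. Of the 14035 barcodes, 11756 were also in the hashtag library and 6665 in the TCR library. Doublets were not called; leaving out cells with 2 or more productive beta chains was an alternative. Classes came from each cell's own UMIs. Counts were summed per class and divided by all mouse UMIs of the class (CPM), with exact Poisson intervals, exact conditional binomial intervals for ratios and Clopper-Pearson intervals for shares, all at 95%. A gene entered the 2-fold rule with 50 or more UMIs in both classes together. For shares, each cell was thinned to 1500 UMIs. A cell was given a tumor when all its hashtag UMIs came from tags of that tumor, with no minimum count. With 1 library, no p-value was computed, and duplicate reads were collapsed by UMI, so intervals cover counting error only. Levels are per UMI at the 5' end and not per length, so they were compared between classes and not between genes.

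The genes, classes and related lists were chosen with earlier results of these data known. The genes named are the 9 receptors and, in each related list up to 3 genes with the largest ratio in each comparison among those past 2-fold. A split of each class by cell state and the correlations between genes over pools made from it are not reported here. A count of 0 was taken to allow up to 3 UMIs. Promoter windows are from RefSeq (GRCm38.p6), which matched 6 of the 9 genes, and coordinates are from GENCODE on GRCm38. Alternatives were other limits on genes and mitochondrial UMIs, other class rules, per-cell CPM averaged over cells, cells of 1500 or more UMIs alone, and other gene minimums, tags and clone definitions. The ratio and its interval were tested on simulated Poisson counts for Treg over Tconv cells, which is the model that the interval assumes. The other steps were not tested on simulated data. The scripts used Python 3.11.15, NumPy 2.4.6, SciPy 1.17.1, pandas 2.3.3 and matplotlib 3.10.9.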

Additional observations from a re-analysis of the deposited data

Results flagged for a closer look

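The ratios below were marked because the same split of cells gave intervals above 1 in one lineage and below 1 in another. The difference between lineages was itself not tested, and the intervals cover counting error only.

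Between the tags of B16-IL33 and B16 tumors, the ratio of Tnfrsf4 was 1.31 in Treg cells, 0.403 in CD8 cells and 0.590 in Tconv cells, the latter from 19 and 17 cells with B16-IL33 tags. Under either tag number alone, the intervals for CD8 and Tconv cells contained 1.

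Between expanded and unshared clonotypes, Tnfrsf4 had ratios of 1.22 in Treg, 0.617 in CD8 and 0.392 in Tconv cells, and Tnfrsf18 had ratios of 1.17, 0.826 and 0.684 in the same order. Tnfrsf9 was at 1.36 in CD8 and 0.366 in Tconv cells, and Cd27 at 1.5 in Treg and 0.425 in Tconv cells. With clones defined by the beta chain, the CD8 intervals of Tnfrsf4 (0.854) and Tnfrsf18 (0.965) contained 1, while for Tnfrsf9 and Cd27 and for Tnfrsf4 and Tnfrsf18 in Treg and Tconv cells the direction was the same and 1 was left out.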

How the results depend on the processing

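The settings were planned, except 2 readings of the Zbtb16 cells chosen after seeing the data. Settings that left all 9 ratios of a comparison as they were, such as the gene minimum, are not counted here. Of 81 alternative values for Treg over Tconv, 49 stayed within the 95% interval of the reported ratio and 32 did not. For Treg over CD8 these were 55 and 17, for CD8 over Tconv 54 and 27, for Zbtb16 over Tconv cells 78 and 12 (with the 2 added readings), and for Il1rl1+ over Il1rl1- Treg cells 55 and 8. No gene past 2-fold in the main comparison changed direction, while the CD8 to Tconv ratios of Tnfrsf9 (0.678 to 2.04) and Tnfrsf1b (0.651 to 1.36), under 2-fold, turned without the Il2ra or Ikzf2 Tconv cells. CD8 cells were not filtered in that setting. The number of genes at least 2-fold apart between CD8 and Tconv cells fell from 4 to 2 when Tconv cells with Il2ra or Ikzf2 were left out (Tnfrsf25, lower in CD8 cells, and Tnfrsf9, now higher in them), and also to 2 (Tnfrsf4 and Tnfrsf25) when only cells with 1500 or more UMIs were used. Between Zbtb16 and Tconv cells it fell from 3 to 1 without the Il2ra or Ikzf2 Tconv cells, and rose to 5 with the 16 Zbtb16 cells that carried the TRAV11-TRAJ18 chain. For Treg over Tconv it fell from 7 to 6 without an upper limit on genes or with mitochondrial UMIs under 10%, where Icos was at 1.90 and 1.94, and to 5 with per-cell CPM, where Icos was at 1.94 and Cd27 at 1.98. The numbers for Treg over CD8 (8) and the Treg groups (1) stayed within 1.5 times. Under the tags numbered 1 alone, 5 of 27 gene and class pairs left out a ratio of 1, against 8 under both tags and 7 under the tags numbered 2. Expanded clones defined by the beta chain gave 13 pairs against 14, with 4 lost (Tnfrsf4 and Tnfrsf18 in CD8, Tnfrsf1b and Icos in Tconv cells) and 3 gained (Tnfrsf25 and Cd27 in CD8, Tnfrsf1b in Treg cells).

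The Treg to Tconv ratio of Tnfrsf9 ranged from 2.70 to 9.83 over the settings and that of Tnfrsf4 from 2.64 to 6.81. Both were highest against Tconv cells without Il2ra or Ikzf2, with Treg cells not filtered. The ratio of Tnfrsf25 between the Treg groups ranged from 2.66 to 3.03. Depth limits the Zbtb16 cells, Tnfrsf25, Cd226 and all tagged cells. No paired analysis was possible because all cells came from 1 gene expression library.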
